A study of Mus musculus with 24 samples.

Results

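Skin that had received F-PRT was compared with untreated skin across all genes with measurable expression. F-PRT is read here as FLASH proton radiotherapy, in which a proton beam is delivered at an ultra-high dose rate. The comparison held 8 of the 24 libraries of the series, chosen by their tissue and treatment labels: 4 of F-PRT skin and 4 of skin from untreated mice. All mice were female and 10 weeks old, and the series is titled for a mouse sarcoma model. The strain, the dose, the irradiated field and the time between irradiation and sampling do not appear in the labels. The labels call the 4 libraries of each group biological replicates, without saying whether each came from a different mouse, so the p-values measure the spread between these libraries. Skin given S-PRT, read here as proton radiotherapy at the standard dose rate, and bone with F-PRT or without treatment enter mainly the last 2 comparisons.

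Ionising radiation breaks DNA, and the damage stabilises p53, a transcription factor that switches on genes of cell cycle arrest, DNA repair and cell death. Skin is a tissue of renewing layers: the epidermis, hair follicles and sebaceous glands are fed by dividing cells and lie on a dermis of fibroblasts, vessels and nerves. The sebaceous glands make lipid in large amounts, and the outer epidermis forms a barrier of keratins, filaggrin and lipid.

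The F-PRT libraries held between 16.42 and 21.61 megacounts of summed expected counts and the untreated libraries between 16.71 and 21.2 megacounts. Levels are given as CPM, counts scaled to a fixed total, with TMM factors between libraries, and not divided by gene length. The labelled tissue was checked against cell type markers. The 4 keratinocyte markers summed to between 12161 and 14781 CPM in F-PRT skin and between 9590 and 24233 CPM in untreated skin. The osteoblast gene Ibsp and the neutrophil gene Ly6g were at 0 in all 8 libraries. The library Untreated 1 stood apart from the other 7. It held 10.8% of its counts in gene models like ribosomal RNA, against 1.13% to 1.7% elsewhere, and it had the highest keratinocyte sum. It also had the lowest share of mitochondrial coding counts, at 2.13% against 3.89% to 6.46%. The median coefficient of variation of 10060 genes was 8.29% in F-PRT, 15.3% in Untreated and 8.92% in Untreated without replicate 1. Results are therefore given with this library and, where it matters, without it. Skeletal muscle markers summed to 154 to 3080 CPM with F-PRT and to 3.99 to 2292 CPM without, and protein-coding genes took 83.7% to 85.4% of counts in F-PRT and 78.6% to 81.2% in Untreated. The part of muscle, coding share or the ribosomal share in the results was not tested, except where a value is given beside a result.

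F-PRT changed the level of genes in both directions. Of 18324 genes tested, 577 rose (3.15%) and 635 fell (3.47%) at a Benjamini-Hochberg adjusted p of at most 0.05 in edgeR's quasi-likelihood test, 6.61% in all. At an unadjusted p under 0.05 the number was 4087. In 1507 genes (8.22%) every F-PRT library lay above every untreated library, and in 1527 genes (8.33%) every F-PRT library lay below. The median log2 change over all tested genes was -0.02. Below, rose and fell are used only for genes past this test. Without Untreated 1, 1518 genes rose (8.09%) and 1223 fell (6.52%) of 18756. The count of calls was 628, 601, 554 and 577 without F-PRT 1, 2, 3 and 4, and 2741, 688, 865 and 1137 without Untreated 1, 2, 3 and 4. In bulk tissue, fewer cells of a type and less RNA per cell cannot be told apart.

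The rising and falling genes differed in several measures. At least 2-fold changes were held by 228 of the rising and 250 of the falling genes, and at least 4-fold changes by 58 and 34. Together the rising genes took 3.21% of the counts of F-PRT skin and 1.71% of untreated skin. The falling genes took 3.07% and 5.22%. Of the rising genes 71 had an untreated mean under 1 CPM, against 3 of the falling genes. A gene near 0 in Untreated passed the filter on low counts mainly where it was high with F-PRT, so this contrast is a description. Falling genes were shorter: among protein-coding genes the median exonic length was 5.63 kb for the rising, 3.48 kb for the falling and 4.39 kb for the others. Of coding genes split in 4 equal parts by exonic length, 2.24% rose and 6.57% fell in the shortest, and in the longest 5.72% rose and 2.88% fell. The median log2 change went from -0.10 in the shortest to 0.02 in the longest, and from -0.03 to 0.01 without Untreated 1. The part of gene length in the group results was not tested.

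**Figure D1:**
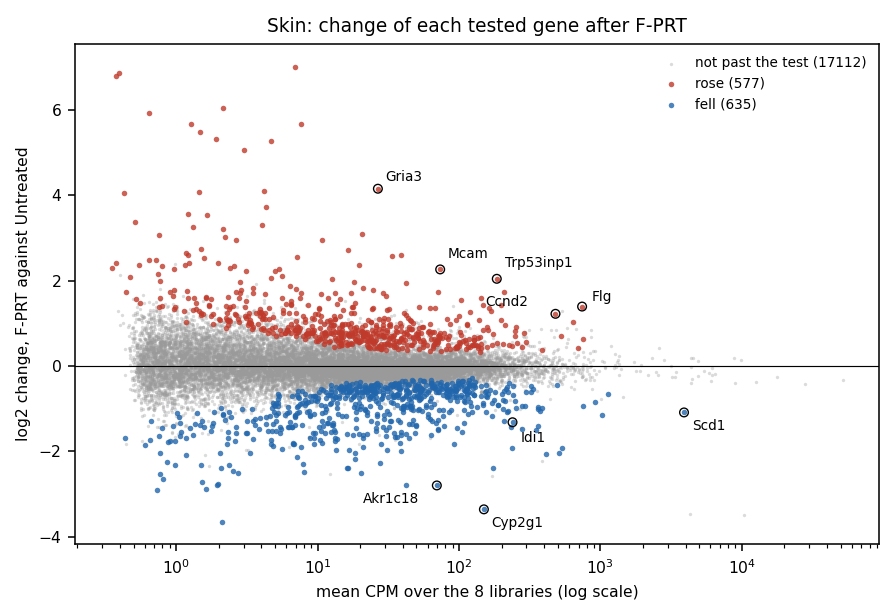
Each of the 18324 tested genes is placed by its mean CPM over the 8 libraries (log scale) and its log2 change in F-PRT skin against Untreated, with the 577 rising genes in red, the 635 falling genes in blue and the others in grey. Gria3 stands far above other genes of like level, and Cyp2g1 and Akr1c18 stand at the lower edge.

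The gene with the smallest p was Gria3 (ENSMUSG00000001986, chromosome X, 41400854 to 41678601, GRCm38), a subunit of AMPA-type glutamate receptors. It stood at 47.3, 49.8, 55.9 and 49.4 CPM in F-PRT 1 to 4 and at 2.81, 3.24, 2.6 and 2.74 CPM in Untreated 1 to 4. The groups lay far apart and neither spread much. Gria3 rose 17.7-fold (log2 4.15, SE 0.12, edgeR adjusted p = 1.27e-07). Igsf9b, a neuronal adhesion protein of the immunoglobulin superfamily, was at 35.4, 34.4, 39.7 and 38.5 CPM against 4.16, 4.83, 3.51 and 4.88 CPM, again with no overlap. It rose 8.5-fold (log2 3.09, SE 0.13, edgeR adjusted p = 3.45e-06). Rnf169, a ubiquitin ligase that acts at DNA breaks, rose 2.56-fold from 35.1 ± 2.02 to 89.8 ± 5.9 CPM (SD, n = 4 in this and later means; edgeR adjusted p = 4.86e-05).

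Several of the largest rises among named genes started from almost no expression. Ms4a10, of the membrane-spanning MS4A family, was at 3.74, 3.75, 5.49 and 3.92 CPM after F-PRT and at 0, 0.11, 0 and 0.122 CPM in untreated skin (edgeR adjusted p = 0.00021). Anks1b, a synaptic scaffold protein, was at 5.07 to 6.8 CPM against 0.0606 to 0.27 CPM (edgeR adjusted p = 4.86e-05). These untreated levels rest on a handful of counts, so no fold is given. Gapdhs, the glycolytic dehydrogenase of sperm, was at 7.91 ± 1.21 against 0.451 ± 0.241 CPM, and Celf5, a brain RNA-binding protein, at 7.3 ± 1.17 against 0.737 ± 0.217 CPM. Krt7, a keratin of simple epithelia, was at 8.65, 8.14, 8.16 and 7.19 CPM against 0.919, 0.439, 0.485 and 0.549 CPM. Scgb1a1, the club cell secretory protein of airways, rose 7.66-fold to 19.1 ± 1.26 CPM, and Susd4, a complement regulator, rose from 0.414 ± 0.134 to 3.9 ± 0.957 CPM. All 7 genes of this paragraph kept their calls when any single library was left out.

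The largest log2 change of all genes that rose was in Gm10801, 1 of a family of gene models that lie on satellite repeats, the long arrays of short repeated DNA found around mouse centromeres. This family was put together by name after its values were seen. Of its 12 models 5 passed the filter on low counts, and all 5 of these rose, in every fit run, with log2 changes of 5.27 to 7.01. Because untreated levels were near 0, a model had to be high with F-PRT to pass that filter, so the count is a description. Their summed CPM was 41, 34.8, 68.6 and 42 in F-PRT 1 to 4 and 0.501, 0.603, 1.06 and 1.09 in Untreated 1 to 4. Every F-PRT library was far above every untreated library. Gm10801 (ENSMUSG00000075015, chromosome 2) was at 12.9, 10.6, 20.3 and 11.5 CPM against 0.108, 0, 0.182 and 0.122 CPM (edgeR adjusted p = 4.67e-05), and its neighbour Gm10800 at 11.7, 11.2, 21.5 and 15.3 CPM against 0.27, 0.0549, 0.303 and 0.549 CPM (edgeR adjusted p = 8.32e-05). The S-PRT skin libraries 1 to 4 held 15.9, 42.4, 68.8 and 94.5 CPM of the family's measured models. The repeats are alike in sequence, so the split of reads among models is uncertain.

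Some families, grouped by symbol after the values were seen, held several such genes. Over all genes 3.15% rose and 3.47% fell, and the family counts are a description. Of the 9 carboxylesterases measured, which hydrolyse esters of lipids and drugs, Ces2e, Ces2f and Ces2g rose and 2 fell. Ces2f went from 47.5, 55.7, 46.8 and 62.2 CPM to 94, 120, 126 and 110 CPM (2.12-fold, edgeR adjusted p = 0.00122). Every member that rose is of the Ces2 subfamily, whose copies are alike in sequence, so the split of reads among them is uncertain. Ces2e was at 3.36, 3.06, 5.54 and 3.82 CPM against 0.541, 0.659, 0.303 and 0.427 CPM (8.04-fold, edgeR adjusted p = 0.000747). Of 7 genes of the Slit guidance cues and their Robo receptors 4 rose, with Slit1 at 8.87 ± 1.47 against 1.84 ± 0.322 CPM and Slit2 at 61.1 ± 8.67 against 29.1 ± 7.17 CPM. Of 5 Kcna potassium channels Kcna1, Kcna2 and Kcna6 rose, by 2.04-fold, 1.86-fold and 2.05-fold. Of 38 ABC transporters 5 rose and 3 fell. In the fit on all 12 skin libraries 2 carboxylesterases, 2 Slit or Robo genes, 1 Kcna channel and 2 ABC transporters rose. Without S-PRT 4, a library described below, that fit gave 3, 4, 3 and 6. Abcb1b, a drug efflux pump, was at 45.2, 42.3, 46.8 and 43 CPM against 12.2, 15.2, 16.5 and 10.2 CPM, a 3.28-fold rise (edgeR adjusted p = 0.00021). Abcg2, another efflux pump, rose 2.37-fold (edgeR adjusted p = 0.00114).

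Targets of p53 rose as a group. Of 55 listed targets 32 rose, 0 fell and 23 did not pass, against 3.15% of all tested genes that rose. The list, like the others, was written with earlier results of these data known, so its count is a description and not a test. The median log2 change was 0.84, and 49 of the 55 had a positive change, against 47.2% of all genes. Without Untreated 1, 37 rose, and without F-PRT 3 or F-PRT 4, 26 rose. The list's mean log2(CPM + 1) was between 5.2 and 5.27 in the F-PRT libraries and between 4.36 and 4.52 in the untreated libraries. Trp53 itself, which encodes p53, was at 62.5 ± 6.44 against 72.5 ± 20.6 CPM (edgeR adjusted p = 0.537).

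**Figure D2:**
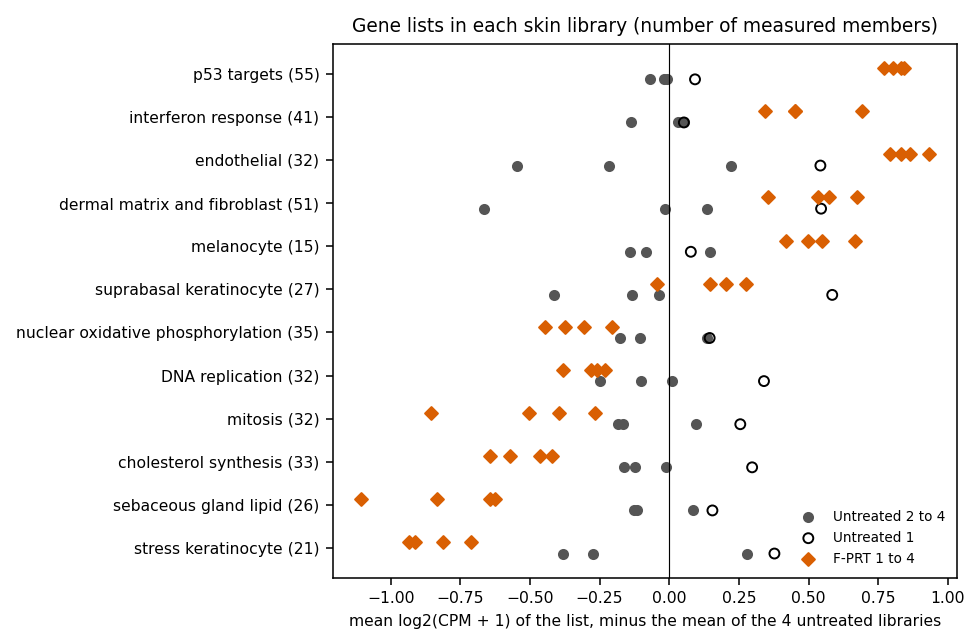
Each row is a gene list with its number of measured members, and each point is a library: its mean log2(CPM + 1) over the list minus the mean of the 4 untreated libraries (diamonds, F-PRT; filled circles, Untreated 2 to 4; open circles, Untreated 1). F-PRT libraries lie to the right for p53 targets and to the left for stress keratinocyte, sebaceous and cholesterol genes, without overlap, while in the endothelial and fibroblast rows Untreated 1 lies among or near the F-PRT libraries.

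Promoter windows of 2 p53 targets are shown because they carry the factor's own motif. The 300 bases from 250 before to 50 after each RefSeq gene start (GRCm38.p6) were searched on both strands for the p53 consensus, 20 bases with no spacer. Without a mismatch 2 of 27025 windows held it (0.0074%), none of them a listed target. With 1 mismatch allowed, a setting chosen after that search, 25 windows held it (0.0925%). Of the 43 target windows found, 2 did (4.65%), those of Ccng1 and Cdkn1a. Capitals mark the match, which lies 195 to 176 bases before the start of Ccng1 (chr11:40755237-40755536, minus strand) and 51 to 32 bases before the start of Cdkn1a (chr17:29090729-29091028, plus strand).
Ccng1: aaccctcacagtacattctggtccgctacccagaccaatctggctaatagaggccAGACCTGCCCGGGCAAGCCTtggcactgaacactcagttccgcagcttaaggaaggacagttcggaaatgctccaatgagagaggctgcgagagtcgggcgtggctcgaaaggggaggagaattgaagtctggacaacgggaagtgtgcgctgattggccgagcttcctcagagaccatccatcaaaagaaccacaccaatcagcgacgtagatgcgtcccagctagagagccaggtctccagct
Cdkn1a: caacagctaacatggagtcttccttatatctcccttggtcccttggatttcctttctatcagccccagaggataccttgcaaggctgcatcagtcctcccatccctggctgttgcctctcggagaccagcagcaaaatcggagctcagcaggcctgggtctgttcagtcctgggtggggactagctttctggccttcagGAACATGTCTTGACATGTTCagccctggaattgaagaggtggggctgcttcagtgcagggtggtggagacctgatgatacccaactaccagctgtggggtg
A match is a description of the letters, not evidence of binding.

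Among the 13 targets that act in cell cycle arrest 10 rose. Ccng1 (ENSMUSG00000020326, chromosome 11), which encodes cyclin G1, was at 371, 275, 345 and 279 CPM in F-PRT skin and at 76.8, 136, 95.6 and 76.4 CPM in untreated skin. The lowest F-PRT library stood above the highest untreated library (3.3-fold, log2 1.72, SE 0.20, edgeR adjusted p = 0.00102). Zmat3, an RNA-binding regulator of splicing and growth, was at 226, 235, 251 and 248 CPM against 109, 85.2, 99.4 and 102 CPM. Psrc1, a spindle protein, rose 2.01-fold, and Gtse1, a p53 regulator of the G2 phase, rose 2.26-fold (edgeR adjusted p = 0.0018 and 0.00801). Trp53cor1, the long noncoding RNA known as lincRNA-p21, stood at 2.08 to 2.69 CPM against 0 to 0.439 CPM (edgeR adjusted p = 0.00774). Cdkn1a (ENSMUSG00000023067, chromosome 17), the kinase inhibitor p21 and the classic arrest target, was at 306, 332, 332 and 338 CPM against 279, 149, 137 and 135 CPM. Untreated 1 was close to the F-PRT libraries here, and the others were far below. Cdkn1a rose 1.87-fold (log2 0.90, SE 0.22, edgeR adjusted p = 0.0378; 5.16e-05 without Untreated 1), and the call was lost without any 1 of the other 7 libraries (adjusted p 0.0765 to 0.112). Btg2, Gadd45a and Plk3 did not pass.

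Among the 13 targets of cell death 9 rose. Trp53inp1 (ENSMUSG00000028211, chromosome 4), an inducer of death and autophagy, stood at 259, 265, 347 and 322 CPM against 68.7, 63.1, 73.3 and 84.5 CPM. No library of either group came near the other group (4.12-fold, edgeR adjusted p = 4.86e-05). Tnfrsf10b, a death receptor for TRAIL, was at 27.8, 25.6, 27.6 and 27.3 CPM against 9.52, 10.1, 10.6 and 8.59 CPM, a 2.79-fold rise with a very small spread (edgeR adjusted p = 6.94e-05). Eda2r, a receptor of the tumour necrosis factor family, rose 3.52-fold from 9.35 ± 3.52 to 32.9 ± 4.5 CPM. Apaf1, the scaffold of the apoptosome, was at 45, 42.8, 43.8 and 46.2 CPM against 16.5, 20.7, 14 and 20.1 CPM (2.49-fold, edgeR adjusted p = 0.000528). Aen, an apoptosis nuclease, rose 2.07-fold. Pmaip1, the BH3-only protein Noxa, rose 2.53-fold (edgeR adjusted p = 0.00496). Bax rose 2.14-fold (edgeR adjusted p = 0.0175), but not without F-PRT 2 or F-PRT 4 (0.0539 and 0.0577). Bbc3, the BH3-only protein Puma, was at 7.52 ± 1.01 against 3.88 ± 1.96 CPM and did not pass (0.0878; 0.00163 without Untreated 1), and Perp was at 1726 ± 118 against 1871 ± 309 CPM.

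Of the 6 targets that feed back on p53, only Mdm2 passed. Mdm2, the ubiquitin ligase that degrades p53, was at 105, 102, 119 and 97.3 CPM against 55.2, 71, 67.2 and 64.8 CPM (1.64-fold, log2 0.71, SE 0.11, edgeR adjusted p = 0.00383). The groups did not overlap. Trp73, Rchy1, Mdm4, Ppm1d and Trp53 had log2 changes between -0.22 and 0.44.

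The other 23 targets were listed under metabolism and repair, though some of them have other roles. Of these 12 rose, among them the 2 of smallest p on the list. Exoc4 (ENSMUSG00000029763, chromosome 6), a subunit of the exocyst that tethers secretory vesicles, was at 215, 209, 215 and 228 CPM against 77.2, 82.1, 84 and 78.4 CPM. It rose 2.69-fold with little spread in either group (edgeR adjusted p = 2.23e-05). Mgmt, which removes alkyl groups from guanine in DNA, was at 11.3, 13, 13.7 and 11 CPM against 2.22, 2.2, 1.82 and 2.13 CPM, a 5.84-fold rise (edgeR adjusted p = 4.67e-05). Polk, a DNA polymerase that copies past lesions, was at 44.4, 43.7, 45.9 and 49.8 CPM against 12.3, 15.9, 16.1 and 15.3 CPM, a 3.08-fold rise (edgeR adjusted p = 6.94e-05). All 3 genes separated the groups without overlap. Dglucy, a mitochondrial enzyme that handles D-glutamate, rose 4.08-fold, Dcxr, a carbonyl reductase, 5.17-fold, and Ephx1, an epoxide hydrolase, 2.99-fold. Gdf15, a secreted stress factor, was at 3.31, 3, 2.37 and 2.37 CPM against 0.324, 0.22, 0.0606 and 0 CPM (edgeR adjusted p = 0.00186). Sesn2, a sestrin that restrains growth signalling, rose 1.82-fold, while Sesn1 was at 27.9 ± 3.81 against 33.4 ± 2.47 CPM and did not pass (edgeR adjusted p = 0.23). Ddb2 and Xpc, which recognise ultraviolet lesions, had log2 changes of 0.04 and 0.15 and did not pass.

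**Figure D3:**
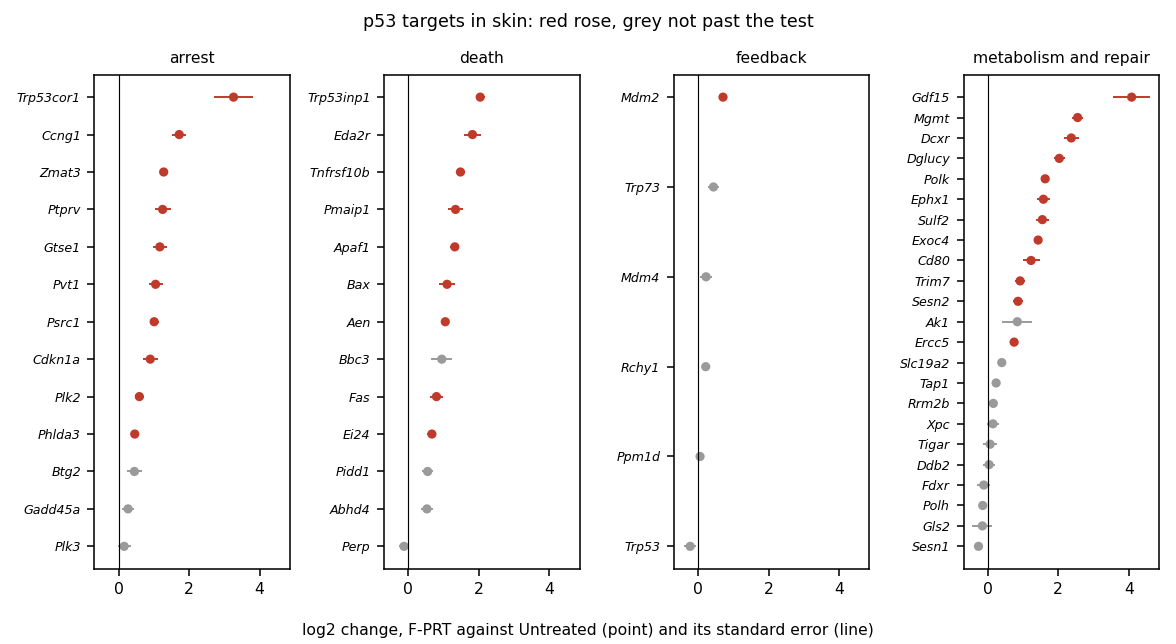
The 55 measured p53 targets are shown in 4 panels by role, each with its log2 change in F-PRT skin against Untreated (point) and standard error (line), red where the gene rose and grey where it did not pass. Gdf15, Trp53cor1 and Mgmt lie farthest to the right, 10 of 13 arrest genes and 9 of 13 death genes are red, and in the feedback panel only Mdm2 is.

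Repair and death genes beyond the p53 list gave few calls. Of 50 measured DNA repair genes 4 rose (Mgmt, Polk, Ercc5 and Rev1, of which the first 3 are also on the p53 list) and 1 fell, beside 3.15% and 3.47% of all genes. These 4 rose with any single library left out. Rev1, which works beside Polk in copying past lesions, was at 50.3, 48.9, 50.7 and 55.6 CPM against 24.3, 30.1, 27.3 and 25.6 CPM (1.92-fold, edgeR adjusted p = 0.000759). Ercc5, an endonuclease of nucleotide excision repair, rose 1.69-fold (edgeR adjusted p = 0.00429). Brca1, of homologous recombination, was at 5.94 ± 0.81 against 7.69 ± 1.52 CPM and did not pass (edgeR adjusted p = 0.28). Of 25 genes of the BCL2 family and caspase machinery 3 rose, Apaf1, Pmaip1 and Bax, and 1 fell, Bok, at 42.4 ± 3.04 against 59.2 ± 4.51 CPM (edgeR adjusted p = 0.0159, lost without F-PRT 2, 3 or 4 at 0.0532 to 0.067).

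Genes of cell division were lower. Among 32 genes of mitosis 8 were past the test and fell, and all 32 had a negative change (median log2 -0.55). Of all genes 3.47% fell and 52.8% had a negative change. Mki67, the standard marker of cycling cells, was at 85.6, 92.3, 97.2 and 66.1 CPM in F-PRT skin and at 182, 130, 166 and 138 CPM in untreated skin, without overlap. It fell to 0.554-fold (log2 -0.85, SE 0.15, edgeR adjusted p = 0.00808). Nuf2, of the kinetochore, fell to 0.525-fold (9.57 ± 0.877 to 5.03 ± 1.01 CPM, edgeR adjusted p = 0.0148). Both kept their calls with any library left out. The list's count was 3, 3, 5 and 2 without F-PRT 1, 2, 3 and 4, and 7, 4, 4 and 7 without Untreated 1, 2, 3 and 4. In the fit on all 12 skin libraries it was 1, with Mki67 at an edgeR adjusted p of 0.215, and 9 without S-PRT 4, a library described below that is low in vessel and fibroblast markers. Of 32 DNA replication genes 4 fell and 1 rose, beside 3.47% and 3.15% of all genes. Tyms, which makes thymidylate, fell from 25.5, 24.4, 24 and 23.9 CPM to 15, 18, 16.9 and 17.2 CPM (0.685-fold, edgeR adjusted p = 0.0102). In most fits that left out a library, 1 or 2 replication genes fell, and without Untreated 1 and Untreated 4 the counts were 7 and 5. The fit on all 12 skin libraries gave 0, and 6 without S-PRT 4.

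The rising gene on that list was a D-type cyclin, one of the growth-driven cyclins that start the cell cycle. Ccnd1 was at 137, 121, 155 and 136 CPM against 76.6, 55.3, 62.7 and 51.7 CPM (2.23-fold, edgeR adjusted p = 0.00114). Ccnd2 (chromosome 6, 127125162 to 127152193) was at 709, 615, 652 and 715 CPM against 365, 248, 268 and 273 CPM (2.33-fold, edgeR adjusted p = 0.000948). Neither overlapped between the groups. Ccnd3, the third member, was at 33 ± 3.56 against 31.6 ± 4.68 CPM (edgeR adjusted p = 0.835). The summed CPM of the 3 cyclins was 766 to 887 in F-PRT and 332 to 492 in Untreated.

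Clustered histone genes, which supply histones while DNA is copied, fell almost throughout. This family was set apart after the values were seen. Of 64 genes measured, 53 fell, 11 did not pass and 0 rose, with a median log2 change of -1.41, beside 3.47% of all genes that fell. In 57 of them every F-PRT library was below every untreated library, against 8.33% of all genes. Their summed CPM was 1266, 1403, 1189 and 1211 in F-PRT 1 to 4 and 3691, 2575, 2494 and 2299 in Untreated 1 to 4. Untreated 1 had the highest sum, and without it 53 genes again fell. Of the 64 genes on chromosome 13 that fell, 45 were clustered histones. Hist1h1d (ENSMUSG00000052565), a linker histone H1, was at 73.1, 91, 76.3 and 72.6 CPM against 183, 162, 177 and 145 CPM (0.469-fold, edgeR adjusted p = 0.000588). Hist1h1a, another H1, fell to 0.347-fold, Hist1h2bk to 0.246-fold, Hist1h4f to 0.436-fold and Hist2h2bb to 0.341-fold. The copies are alike in sequence, and most histone messages carry no polyA tail, so in these polyA-selected libraries single values are uncertain. The small RNAs 7SK and 7SL, which also lack a tail, took 8%, 8.67%, 7.32% and 9.34% of counts in F-PRT 1 to 4 and 5.58%, 11.5%, 10.9% and 12.4% in Untreated 1 to 4. Their share was thus lower with F-PRT than in Untreated 2 to 4 but higher than in Untreated 1, the library with the highest histone sum, and their part in the result was not tested. Of 7 measured H2A variant genes, which replace or mark standard histones, H2afx and H2afz fell, to 0.461-fold and 0.602-fold (edgeR adjusted p = 0.00732 and 0.00169), and 1 rose.

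**Figure D4:**
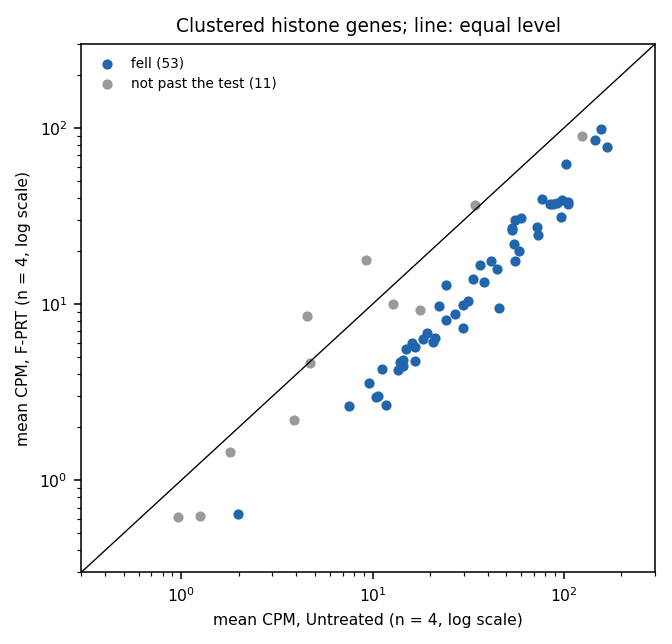
Each point is 1 of the 64 measured clustered histone genes, placed by its mean CPM in Untreated (n = 4) and in F-PRT (n = 4) on log axes, with a line of equal level. The 53 genes that fell lie below the line across the whole range, and 3 of the 11 others lie above it.

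Cholesterol synthesis fell along most of its pathway. Of 20 listed enzymes 14 fell, 0 rose and 6 did not pass (median log2 -0.85), beside 3.47% of all genes that fell. Of 13 regulators and transport genes 2 fell. Over the 33 genes the count was 16 with all libraries, 12 without F-PRT 1, and between 13 and 16 without any other library. Promoter windows of 2 enzymes are shown because they hold the core of the sterol regulatory element, the site of the SREBP factors that drive this pathway. The full element, which has AT before the core CACCCCAC, was in 23 of 27025 windows (0.0851%) and in 0 of the 24 found for the list. The core alone was in 749 windows (2.77%) and in 2 of these 24 (8.33%), those of Acat2 (chr17:12960676-12960975, minus strand, 181 to 174 bases before the start) and Hmgcs1 (chr13:119690101-119690400, plus strand, 136 to 129 bases before the start). Capitals mark the core, searched on both strands. It was also in 3 of the 43 p53 target windows.
Acat2: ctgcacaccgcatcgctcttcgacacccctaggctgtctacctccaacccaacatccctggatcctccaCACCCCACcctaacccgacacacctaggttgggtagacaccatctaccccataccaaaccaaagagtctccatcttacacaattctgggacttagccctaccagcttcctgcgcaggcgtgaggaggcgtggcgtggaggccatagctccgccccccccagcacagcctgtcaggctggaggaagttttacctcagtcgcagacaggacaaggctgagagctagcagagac
Hmgcs1: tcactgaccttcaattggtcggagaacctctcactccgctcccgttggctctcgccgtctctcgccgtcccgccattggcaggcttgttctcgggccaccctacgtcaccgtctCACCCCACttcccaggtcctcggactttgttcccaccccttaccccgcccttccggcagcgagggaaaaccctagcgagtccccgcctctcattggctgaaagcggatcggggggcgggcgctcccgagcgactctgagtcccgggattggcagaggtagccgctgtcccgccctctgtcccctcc
Again the letters describe the windows and show no binding.

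The falls began at the first steps of the pathway. Acat2, which joins the first acetyl units, was at 41.3, 47.2, 33 and 44.7 CPM in F-PRT skin and at 123, 106, 82.4 and 90.1 CPM in untreated skin (0.414-fold, edgeR adjusted p = 0.00125). Hmgcs1, the next enzyme, was at 247, 246, 214 and 272 CPM against 558, 433, 426 and 488 CPM (0.514-fold, edgeR adjusted p = 0.00175). In both the highest F-PRT library was well under the lowest untreated library. Idi1 (ENSMUSG00000058258, chromosome 13), which makes the isoprenoid building block, was at 136, 145, 121 and 143 CPM against 321, 395, 324 and 326 CPM and had the smallest p of the list (0.4-fold, edgeR adjusted p = 0.000135). Mvd fell to 0.385-fold. Of the later steps, Lss, which closes the sterol rings, fell to 0.44-fold, Sqle by 0.92 on the log2 scale, Cyp51 by 0.83 and Nsdhl by 1.04. Mvk, Pmvk, Ebp, Sc5d, Tm7sf2 and Dhcr7 did not pass. Of the regulators, Insig1, the sterol sensor partner, fell to 0.533-fold (edgeR adjusted p = 0.00259). Srebf2, which encodes the SREBP factor of this pathway, was at 184 ± 15.8 against 240 ± 62 CPM and did not pass (edgeR adjusted p = 0.194).

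**Figure D5:**
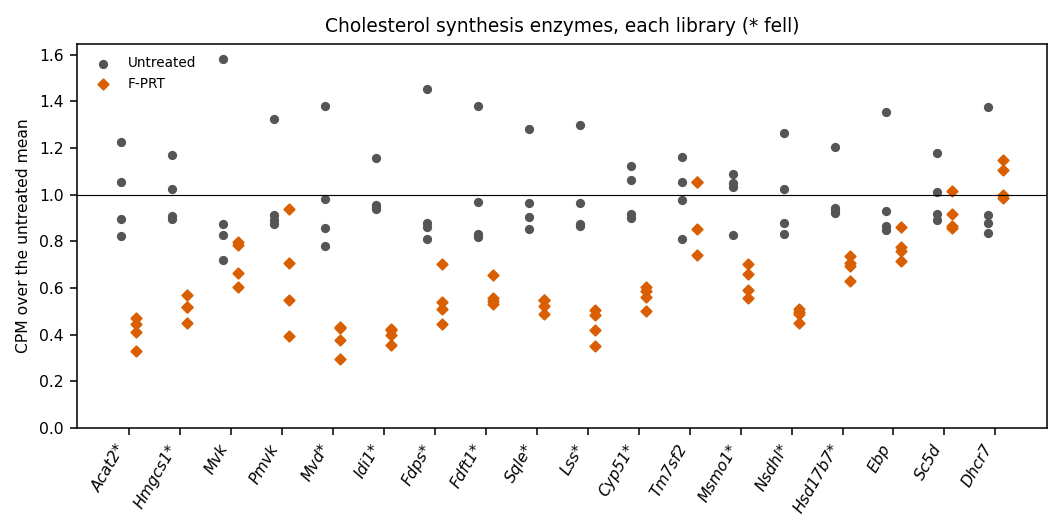
For 18 of the 20 listed cholesterol synthesis enzymes, ordered along the pathway, the CPM of every library is divided by the mean of the 4 untreated libraries (circles, Untreated; diamonds, F-PRT; asterisks mark the 12 of them that fell). The F-PRT points of Acat2, Hmgcs1 and Idi1 lie well below all untreated points, while those of Dhcr7, Sc5d and Tm7sf2 lie among the untreated points.

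Sebaceous gland genes fell with them. Over all genes 3.47% fell. Of 26 genes of sebocytes and their lipid synthesis 16 fell, 0 rose and 10 did not pass. Their median log2 change was -0.94, and -0.88 without Untreated 1, and 12 to 17 of them fell when a library was left out. Mc5r, the melanocortin receptor of sebaceous glands, was at 12.9, 16.6, 8.51 and 11.2 CPM against 45.5, 44.6, 34.5 and 49.7 CPM (0.282-fold, edgeR adjusted p = 0.000778). Hsd3b6, a steroid dehydrogenase, was at 17.9, 18.9, 12.5 and 18.8 CPM against 72.2, 67.5, 51.2 and 45.8 CPM (0.287-fold, edgeR adjusted p = 0.000588). Scd3, the desaturase of sebocytes, was at 51, 52.4, 34.7 and 84.7 CPM against 287, 376, 345 and 155 CPM (0.192-fold, edgeR adjusted p = 0.00217). In all 3 the groups were separate. Cidea, a lipid droplet protein, fell to 0.364-fold, Plin2, which coats droplets, to 0.471-fold, Awat1, which makes wax esters, to 0.442-fold, Far2, which makes the alcohols for waxes, to 0.482-fold, and Soat1, which esterifies cholesterol, to 0.377-fold. Scd1 was at 2228, 3067, 1760 and 2896 CPM against 5565, 5844, 4543 and 5294 CPM (0.468-fold, edgeR adjusted p = 0.0123, but 0.0528 without F-PRT 1). The 4 sebocyte markers summed to 62 to 133 CPM with F-PRT and to 242 to 477 CPM without, and 3 of them fell. Whether there were fewer sebocytes was not tested. In the fit on all 12 skin libraries 5 of the 26 fell, and 16 without S-PRT 4. Of 24 barrier lipid genes of the epidermis 2 fell, Cers4, a ceramide synthase, to 0.374-fold (edgeR adjusted p = 0.00717) and Elovl4 to 0.633-fold (edgeR adjusted p = 0.0235, lost without F-PRT 1, 2 or 3 or Untreated 2 or 3 at 0.0586 to 0.0817). Of 17 adipocyte genes 1 fell, Pparg (edgeR adjusted p = 0.0397), and only with all libraries or without Untreated 1.

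Enzymes of steroid and foreign compound metabolism held the deepest falls. Of 33 listed, 8 fell and 3 rose, beside 3.47% and 3.15% of all genes. When a library was left out 6 to 8 fell, and in the fit on all 12 skin libraries 4 fell and 1 rose. Cyp2g1, a cytochrome P450, was at 25.4, 14, 44.3 and 22.9 CPM against 330, 374, 264 and 126 CPM (0.0974-fold, log2 -3.36, SE 0.40, edgeR adjusted p = 0.00134). Untreated 4 was the lowest untreated library here and still stood well above every F-PRT library. Akr1c18, a reductase that inactivates progesterone, was at 21.7, 15.4, 16.3 and 16.4 CPM against 130, 125, 129 and 104 CPM (0.143-fold, edgeR adjusted p = 6.84e-06). Cyp17a1, an androgen synthesis enzyme outside this list, was at 2.62, 2.77, 3.42 and 4.1 CPM against 15.5, 14.1, 13.3 and 5.49 CPM (edgeR adjusted p = 0.00645). Cyp1a1, the classic target of the aryl hydrocarbon receptor, fell to 0.42-fold, and Ugt1a1, a glucuronosyltransferase that shares exons with its neighbours, to 0.49-fold. Ephx1, listed above among the p53 targets, was among the 3 that rose. The others were Cyp2e1 and Cyp26b1 (edgeR adjusted p = 0.0388 and 0.0156), which did not pass without F-PRT 3 or Untreated 2, among other libraries.

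Stress and wound genes of keratinocytes were lower, while filaggrin was higher. Of 21 stress keratinocyte genes 11 fell and 0 rose (median log2 -1.18), beside 3.47% of all genes that fell. The count was 3, 5, 5 and 5 without F-PRT 1, 2, 3 and 4, and 11, 7, 11 and 10 without Untreated 1 to 4. Krt16, a keratin of stressed and thickened epidermis, was at 49.4, 47.2, 63.2 and 53.3 CPM against 234, 135, 131 and 123 CPM (0.342-fold, edgeR adjusted p = 0.0021). Defb6, a defensin, was at 116, 125, 104 and 141 CPM against 361, 376, 211 and 230 CPM, and Fabp5, a fatty acid carrier, at 99.7, 123, 71.4 and 127 CPM against 271, 249, 208 and 225 CPM (edgeR adjusted p = 0.005 and 0.00394). The groups did not overlap in these 3 genes. Krt6b was at 3.9, 6.24, 23 and 9.47 CPM against 129, 33.5, 30.8 and 100 CPM, a wide spread, and its call (edgeR adjusted p = 0.0262) was lost without F-PRT 1, 2 or 4 (0.0642 to 0.0879). Its relative Krt6a was at 176 ± 33.1 against 222 ± 81.8 CPM and did not pass (edgeR adjusted p = 0.455). Sprr2i, a small proline-rich envelope protein, fell to 0.177-fold (edgeR adjusted p = 0.00989), and reads of the Sprr2 copies may be split among them.

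Flg (ENSMUSG00000102439, chromosome 3), which encodes the barrier protein filaggrin, gained the most counts of all genes under the naming rule. It was at 1030, 1001, 1180 and 1090 CPM in F-PRT skin and at 541, 254, 436 and 406 CPM in untreated skin, a 2.63-fold rise (log2 1.39, SE 0.20, edgeR adjusted p = 0.0035). Notch1 (chromosome 2), a receptor that drives keratinocytes to differentiate, was at 896, 820, 844 and 870 CPM against 473, 344, 458 and 419 CPM, a 2.03-fold rise (edgeR adjusted p = 0.00137). The groups stood apart for both genes. Flg was the only riser among the 25 cornified envelope genes, of which 4 fell, and without Untreated 1, 7 rose. Of 27 suprabasal genes 1 rose, the proteinase inhibitor Spink5, and 10 rose without Untreated 1. Without that library 8.09% of all genes rose, against 3.15% with it. Krt1, the main suprabasal keratin, was at 1862, 1855, 2101 and 2186 CPM against 4327, 1401, 1667 and 1843 CPM. Untreated 1 was the highest of all libraries, and the change had no stable sign (log2 -0.21, edgeR adjusted p = 0.776; log2 0.29 without Untreated 1). Of 21 basal keratinocyte genes Notch1 rose and 3 fell, Trp63, Fgfr2 and Id1, and 0 to 3 fell when a library was left out. Of 12 hair shaft and root sheath genes 1 fell, Foxn1 (edgeR adjusted p = 0.0299), which did not pass without F-PRT 1, 2, 3 or 4 or Untreated 3 (0.0711 to 0.095).

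A few of the largest changes in level or fold were less firm. Spink5, a proteinase inhibitor of the outer epidermis, was at 762, 910, 982 and 1009 CPM against 673, 537, 552 and 600 CPM, and its call (edgeR adjusted p = 0.019) was lost without F-PRT 2, 3 or 4 or Untreated 2 or 3. Apoe, which carries lipid, was at 659, 674, 592 and 698 CPM against 1688, 1096, 1008 and 949 CPM (edgeR adjusted p = 0.0233, lost without any F-PRT library or Untreated 2). Elovl6, a fatty acid elongase, fell to 0.525-fold and Wnk1, a kinase of ion transport, rose 1.33-fold (edgeR adjusted p = 0.0431 and 0.0426). The call of Elovl6 was lost without F-PRT 1, 3 or 4 or Untreated 2, 3 or 4, and that of Wnk1 without any library but Untreated 1. Chil1, a chitinase-like protein, and Sprr2e fell to 0.175-fold and 0.191-fold, and neither passed without F-PRT 1, 3 or 4, nor Sprr2e without F-PRT 2 or Untreated 2. Lpo, a peroxidase of secretions, was at 0.641, 0.808, 0.604 and 1.05 CPM against 6.33, 3.41, 4 and 1.95 CPM and passed with any library left out (0.199-fold, edgeR adjusted p = 0.00642).

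Among the genes with the largest falls were 4 that encode secreted or membrane proteins, picked here after their values were seen. Fcgbp, a mucus-type protein, was at 204, 318, 146 and 216 CPM against 1028, 959, 645 and 750 CPM (0.262-fold, edgeR adjusted p = 0.00159). Clca3a2, a calcium-activated channel regulator, was at 192, 255, 156 and 193 CPM against 881, 1099, 538 and 740 CPM (0.244-fold, edgeR adjusted p = 0.000917). Panx3, a channel protein of skin and cartilage, fell to 0.316-fold (edgeR adjusted p = 0.000809). Igfbp3, which binds insulin-like growth factors, was at 134, 96.7, 72.1 and 91.1 CPM against 442, 391, 328 and 331 CPM (0.264-fold, edgeR adjusted p = 0.000461). In each of them every F-PRT library was below every untreated library. Proteinase inhibitors moved both ways, with 5 rising and 4 falling of 24, beside 3.15% and 3.47% of all genes. Without Untreated 1, 10 rose and 4 fell, beside 8.09% and 6.52% of all genes. In the fit on all 12 skin libraries 2 rose and 1 fell. Serpina3b was at 157, 193, 96 and 193 CPM against 636, 728, 634 and 675 CPM (0.239-fold, edgeR adjusted p = 0.000497). Serpine2, an inhibitor of thrombin and urokinase, was at 60, 43.4, 66.8 and 58.3 CPM against 9.62, 13.3, 7.57 and 7.86 CPM (5.94-fold, edgeR adjusted p = 0.000104). Serpinb12, of differentiated epidermis, rose 3.34-fold and Serpina12 rose 2.09-fold (edgeR adjusted p = 0.00143 and 0.0126). The Serpina3 copies are alike, so the value of Serpina3b is uncertain in its split.

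Antiviral effectors of the interferon response were higher. Of 29 effectors 10 rose, beside 3.15% of all genes, and of 12 sensors and factors 0 rose. The median log2 change was 0.59 over the 41, of which 39 had a positive change, beside 47.2% of all genes. Ifit3 was at 7.85, 8.08, 8.96 and 7.6 CPM against 4.33, 3.35, 3.15 and 2.26 CPM, and Ifit2 at 6.51, 9.18, 11.8 and 7.47 CPM against 3.41, 3.46, 2.3 and 3.6 CPM (2.48-fold and 2.74-fold, edgeR adjusted p = 0.00568 and 0.00626). Both bind viral RNA or its translation machinery, and neither overlapped between the groups. Ifit1 was at 7.9, 12.5, 12 and 6.24 CPM against 3.73, 3.96, 2.06 and 3.72 CPM (2.86-fold, edgeR adjusted p = 0.0123). Gbp7, a guanylate-binding protein, rose 1.73-fold, and Zbp1, listed with the effectors although it also senses Z-form nucleic acids, rose by 0.88 on the log2 scale (edgeR adjusted p = 0.00803 and 0.0123). Irf7, which relays the signal, had a log2 change of 0.45 and did not pass. The count was 6, 6, 5 and 8 without F-PRT 1 to 4, 12, 5, 7 and 7 without Untreated 1 to 4, 0 in the fit on all 12 skin libraries, and 11 in that fit without S-PRT 4.

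Among genes of other immune functions some changes were large. Over all genes 3.15% rose and 3.47% fell, and without Untreated 1 these shares were 8.09% and 6.52%. Ccl27a and Ccl27b, near-identical copies of the skin chemokine that attracts T cells, fell: Ccl27a from 58.5, 65.8, 62.7 and 79.7 CPM to 24.5, 28.9, 29.9 and 19.9 CPM (0.387-fold, edgeR adjusted p = 0.000809) and Ccl27b to 0.19-fold (edgeR adjusted p = 8.32e-05). They were 2 of the 3 that fell among 33 chemokines and cytokines, of which 2 rose. The alarmin Il1a also fell, to 0.633-fold (edgeR adjusted p = 0.0191), and Il18 and Tslp, epithelial cytokines, rose 1.54-fold and 2.38-fold (edgeR adjusted p = 0.0136 and 0.015). Il1a did not pass without F-PRT 1, 2 or 4 or Untreated 2, Il18 without F-PRT 4, and Tslp without F-PRT 1 or 3. Of 21 T cell and NK cell genes 1 fell (median log2 -0.65), beside T cell markers that summed to 17.4 to 27.2 CPM with F-PRT and to 18.8 to 49.1 CPM without. Of 23 macrophage genes 1 rose and 1 fell, beside a marker sum of 229 to 310 CPM against 77.2 to 234 CPM. Of 18 antigen presentation genes, 12 dendritic cell genes, 6 B cell genes, 10 mast cell genes and 10 red cell and platelet genes 0 passed. Of 5 neutrophil genes 2 fell, S100a8 and S100a9, which stressed keratinocytes also make, and of 17 complement genes Cd55 and C4b rose, with 0 without F-PRT 3 or Untreated 2 and 6 without Untreated 1. S100a8 was at 2.46 ± 1.08 against 13.6 ± 10.1 CPM and did not pass without F-PRT 1, 3 or 4 (edgeR adjusted p 0.053 to 0.0788), and S100a9 at 1.19 ± 0.389 against 4.06 ± 2 CPM, not without any 1 F-PRT library or Untreated 2 (0.0545 to 0.0788).

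Vessel genes were higher, by a count that depended on Untreated 1. Over all genes 3.15% rose, and 8.09% without Untreated 1. Of 32 endothelial genes 9 rose, 0 fell and 23 did not pass (median log2 0.85), and without Untreated 1, 23 rose (median log2 1.12). The count was 4, 5, 5 and 4 without F-PRT 1 to 4, 5, 7 and 6 without Untreated 2, 3 and 4, 1 in the fit on all 12 skin libraries and 14 in that fit without S-PRT 4. Mcam (ENSMUSG00000032135, chromosome 9), an adhesion molecule of vessels and pericytes, was at 131, 110, 116 and 130 CPM against 30.8, 24.9, 22.4 and 23.9 CPM (4.77-fold, log2 2.26, SE 0.12, edgeR adjusted p = 1.4e-05). Its groups were far apart. Mmrn2, a matrix protein of vessels, was at 26.1, 21.6, 28.6 and 29.1 CPM against 12.4, 9.5, 4.24 and 6.16 CPM (3.25-fold, edgeR adjusted p = 0.00671). Ptprb, the vascular phosphatase VE-PTP, and Robo4, a guidance receptor of vessels, rose 2.02-fold and 2.7-fold (edgeR adjusted p = 0.00975 and 0.0113). Pecam1 was at 68, 61.6, 72.5 and 66.8 CPM against 54.9, 35.8, 18.6 and 21.7 CPM, with no overlap, but did not pass (edgeR adjusted p = 0.0604; 0.00331 without Untreated 1). Kdr and Cdh5 did not pass either (0.0612 and 0.198). The 4 endothelial markers summed to 124 to 140 CPM in F-PRT and to 116, 83.9, 38.6 and 48 CPM in Untreated 1 to 4. Of 12 pericyte and smooth muscle genes 2 rose, Mcam again and Rgs5, at 130 ± 6.76 against 61.7 ± 18.8 CPM (edgeR adjusted p = 0.0148, but 0.0528 without F-PRT 3).

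Fibroblast and matrix genes leaned the same way without passing in most cases. Of 22 collagens 0 passed (median log2 0.37), and 9 rose without Untreated 1. Col1a1 was at 866 ± 74 against 478 ± 240 CPM and Col3a1 at 1096 ± 96.4 against 617 ± 228 CPM (edgeR adjusted p = 0.135 and 0.0821; 0.0274 and 0.025 without Untreated 1). Of 51 dermal matrix and fibroblast genes 4 rose and 1 fell, and 24 rose without Untreated 1, where 8.09% of all genes rose against 3.15% with it. The 4 fibroblast markers summed to 2423 to 3058 CPM in F-PRT and to 2293, 1715, 635 and 1181 CPM in Untreated 1 to 4, so the untreated libraries differed more than 3-fold among themselves. The part of tissue makeup in these values was not tested. Timp3, an inhibitor of matrix proteinases, was at 350, 323, 395 and 359 CPM against 269, 242, 217 and 235 CPM (1.48-fold, edgeR adjusted p = 0.0118). Of 24 genes of TGF-beta signalling 6 rose and 1 fell, beside 3.15% and 3.47% of all genes. But 1 or 2 of the 24 rose without any 1 library other than Untreated 1, and 12 without Untreated 1. Tgfb1 itself was at 41.2 ± 2.17 against 48 ± 7.74 CPM (edgeR adjusted p = 0.32).

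Pigment cell genes were higher. Of 15 melanocyte genes 4 rose and 1 fell (median log2 0.74), beside 3.15% and 3.47% of all genes. When a library was left out 3 to 6 rose, and 1 rose in the fit on all 12 skin libraries, or 4 without S-PRT 4. Tyrp1, an enzyme of melanin synthesis, was at 20.2, 17.4, 24.5 and 18 CPM against 7.08, 8.57, 8.12 and 5.79 CPM (2.7-fold, edgeR adjusted p = 0.00107). Tyr, the first enzyme of that pathway, was at 3.2, 3.18, 3.32 and 3.82 CPM against 1.14, 1.48, 1.76 and 0.975 CPM (2.52-fold, edgeR adjusted p = 0.0111). Kitl, the stem cell factor on which melanocytes depend, rose 1.84-fold from 36.7 ± 5.82 to 67.4 ± 9.15 CPM (edgeR adjusted p = 0.00543). None of the 3 overlapped between the groups. The 4 melanocyte markers summed to 47.5 to 69.4 CPM against 20.3 to 35.4 CPM. Of 17 nerve and Schwann cell genes 2 rose, among them Cdh19, a cadherin of Schwann cells, by 1.87-fold (edgeR adjusted p = 0.0177), though not without F-PRT 1, 2 or 3. Of 23 skeletal muscle genes 0 passed. Of 9 glutamate receptor subunits 2 rose, Gria3 and Grik3, the latter at 3.05 ± 0.571 against 1.56 ± 0.168 CPM and not without any 1 library other than Untreated 1. Of 3 measured bone and cartilage genes Col2a1, the cartilage collagen, rose from 0.0549 to 0.244 CPM to 0.635 to 2 CPM (edgeR adjusted p = 0.00645).

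Growth signals between skin cells changed gene by gene. Of 35 Wnt genes 4 rose and 1 fell, beside 3.15% and 3.47% of all genes, and 11 rose without Untreated 1, beside 8.09%. Wif1, a secreted Wnt inhibitor of the dermal papilla, was at 15.1, 15.6, 15.9 and 15.9 CPM against 8.38, 9.23, 8.6 and 7.62 CPM (1.85-fold, edgeR adjusted p = 0.00184). Dkk2, another Wnt modulator, rose 2.57-fold and the receptor Fzd4 1.5-fold (edgeR adjusted p = 0.0124 and 0.0107). Wnt10b fell to 0.449-fold, but not without F-PRT 3 (edgeR adjusted p = 0.0137 and 0.0552). Of 22 follicle stem cell and dermal papilla genes 3 rose, all of the dermal papilla, and 1 fell. Fgf10, a growth factor for epithelium, was at 11.4, 11.7, 13.4 and 13.3 CPM against 6.49, 5.38, 4.85 and 6.03 CPM (2.19-fold, edgeR adjusted p = 0.00195). Of 22 Notch and Hedgehog genes Notch1 and Dhh rose, in every fit that left out a library, with Dhh, the Hedgehog ligand of Schwann cells, at 4.31 ± 0.645 against 1.32 ± 0.415 CPM (edgeR adjusted p = 0.00498). Of 19 EGF family genes Nrg4 fell to 0.456-fold (edgeR adjusted p = 0.00717), and Btc rose (0.0258), though not without F-PRT 2, 3 or 4 or Untreated 2 (0.0578 to 0.0879). Fat1, a giant cadherin, was at 646, 603, 684 and 665 CPM against 426, 389, 413 and 364 CPM (1.63-fold, edgeR adjusted p = 0.00325).

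Metabolic and housekeeping groups had small, mostly negative changes. Over all genes 3.47% fell, and 6.52% without Untreated 1. All 35 nuclear genes of oxidative phosphorylation had a negative log2 change (median -0.37), against 52.8% of all genes, and 5 fell. Those 5 were 0 or 1 without any 1 of the F-PRT libraries or Untreated 2, and 8 without Untreated 1. All 13 mitochondrially encoded genes were negative too (median -0.32), with 0 past the test and 11 falling without Untreated 1. Of 22 proteasome genes, all negative, 2 fell, and 7 fell without Untreated 1. Psma5, a core subunit, was at 43.5, 48.8, 41.4 and 47.8 CPM against 64.7, 69, 69 and 66 CPM (0.675-fold, edgeR adjusted p = 0.00498). Of 31 ribosomal protein genes 0 passed (median -0.09). Of 25 glycolysis and hypoxia genes 5 fell, of which 1 fell in most fits without a library. Slc2a1, the glucose transporter GLUT1, was at 51, 43.2, 46.3 and 45.1 CPM against 119, 79.6, 79.3 and 67.5 CPM (0.536-fold, edgeR adjusted p = 0.0104). Of 29 redox genes 3 fell. Slc7a11, the cystine importer that feeds glutathione, was at 6.67, 5.49, 7.55 and 6.74 CPM against 17.7, 57.1, 27.5 and 18.2 CPM (0.22-fold, edgeR adjusted p = 0.00642). The high and scattered values were all in untreated skin.

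The remaining lists are set beside 3.15% of all genes that rose and 3.47% that fell. Of 28 heat shock and unfolded protein genes 3 fell, and 0 without any 1 F-PRT library or Untreated 2. Of 23 immediate early genes 3 fell, and 1 to 3 when a library was left out. Of 16 glucocorticoid response genes 5 fell and 1 rose, and 1 fell and 1 rose in the fit on all 12 skin libraries. Ddit4, the riser and also a stress-induced brake on growth signalling, was at 29.8, 33.1, 29.6 and 42.8 CPM against 19.8, 14.5, 21.5 and 16.8 CPM (1.87-fold, edgeR adjusted p = 0.0102). Mt2, a metallothionein, was among those that fell, from 139 ± 27.9 to 78.8 ± 8.55 CPM (edgeR adjusted p = 0.011). Of 19 circadian clock genes 0 passed. Of 26 genes of senescence and secreted factors 2 rose and 4 fell, with Gdf15 and Cdkn1a rising and Igfbp3, Mmp13 and Il1a among those that fell. Mmp13 and Il1a did not pass without F-PRT 4, among other libraries, Cdkn1a as given above, and Gdf15 and Igfbp3 passed with any library left out. Of 14 simple epithelium keratins and claudins Krt7 rose and Cldn8 fell, the latter only with all libraries or without Untreated 1.

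Between the 2 beams no gene passed. The 4 S-PRT skin libraries, at 18.8 to 22.09 megacounts, were fitted with the F-PRT and untreated libraries to ask whether the dose rate changed the response. S-PRT 4 stood apart from the other 3. Its endothelial markers summed to 2.87 CPM against 125 to 141, its fibroblast markers to 247 against 2780 to 3708, and its keratinocyte markers to 27412 against 11589 to 15098. Of 19038 genes 0 (0.0%) differed between F-PRT and S-PRT in edgeR's test, 522 had an unadjusted p under 0.05, and limma voom also called 0, with 1109 under 0.05. Leaving out F-PRT 3 gave 1 gene and any other library 0. Without S-PRT 4, 581 of 19405 genes had an unadjusted p under 0.05 and the smallest adjusted p was 0.537. Of the 1212 genes changed by F-PRT 94 (7.76%) had an unadjusted p under 0.05 between the beams, against 2.74% of all genes. These 1212 were chosen with the same F-PRT libraries, which can by itself raise their share, so the gap is no test of the beams. Their median absolute log2 difference was 0.21. The 3 genes of smallest p were Nnat, Hcar1 and Slc5a3. Nnat, the imprinted gene neuronatin, was at 49.1 ± 11.5 CPM in F-PRT, 24.1 ± 1.53 CPM in S-PRT and 55.8 CPM in Untreated, and the F-PRT libraries ran from 35.7 to 63 CPM and the S-PRT libraries from 22.7 to 25.4 CPM (log2 1.03, SE 0.15, edgeR adjusted p = 0.237). Hcar1, the lactate receptor, was at 10.2 ± 2.15, 4.54 ± 0.884 and 6.66 CPM, and Slc5a3, an inositol transporter, at 104 ± 17.6, 66.8 ± 7.59 and 97.7 CPM (edgeR adjusted p = 0.498 and 0.999). A p that misses the threshold does not show that the beams acted alike.

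Several genes named above can be set beside S-PRT. Both beams are compared with the same untreated libraries, so their changes share those values. Ccng1 was at 317 ± 47.7 CPM with F-PRT and 376 ± 126 CPM with S-PRT, Trp53inp1 at 298 ± 43.1 and 348 ± 63.2 CPM, and Gria3 at 50.5 ± 3.72 and 54.5 ± 9.79 CPM. Cyp2g1 was at 26.6 ± 12.7 and 9.54 ± 5.11 CPM, and Akr1c18 at 17.4 ± 2.88 and 10.2 ± 7.29 CPM. Flg was at 1073 ± 79.2 CPM with F-PRT and 702 ± 188 CPM with S-PRT (log2 difference 0.61, SE 0.23, edgeR adjusted p = 0.999). Without S-PRT 4 the S-PRT means of these 6 were 399, 318, 51.2, 11.9, 12.3 and 781 CPM. The S-PRT libraries had the larger SD in each of them except Cyp2g1, and without S-PRT 4 except Trp53inp1 also.

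The effect of F-PRT in skin differed from its effect in bone for many genes. Bone of the same age and sex, 4 F-PRT libraries of 15.15 to 16.58 megacounts and 4 untreated libraries of 10.91 to 16.21 megacounts, entered an interaction test with the 8 skin libraries. Of 20186 genes 2854 (14.1%) differed in effect, and of 1210 genes changed in skin that entered the test 494 (40.8%) did. These 1210 were chosen by their effect in skin, which is part of this test. A higher share is thus built into the choice and is a description only. Gria3, with the smallest p, was at 50.5 CPM in irradiated and 2.85 CPM in untreated skin and at 31.7 and 33.7 CPM in bone, so the gene that skin gained was already present in untreated bone (difference of log2 effects 4.22, SE 0.18, edgeR adjusted p = 8.21e-10). CPM of skin and bone were scaled separately, so a level set across the tissues is approximate. The next 4 genes, Syne1, Ifnlr1, Mpig6b and Rab27b, fell in bone and did not pass in skin. Syne1, a nuclear envelope protein, was at 133 against 718 CPM in bone and at 219 against 156 CPM in skin, and Ifnlr1, a receptor of type III interferon, at 1.45 against 19.1 CPM and at 20.8 against 19.2 CPM.

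The p53 targets divided between the tissues. Of the 55 listed, 13 had an effect more positive in skin than in bone, 6 had one less positive, and 36 did not pass, beside 6.12% and 8.02% of all genes tested. In bone 32 of 54 measured rose and 9 fell, and 6 of the 13 were among those that fell in bone. Calls in bone were frequent in some other lists: 30 of 41 interferon genes rose and 30 of 32 mitosis genes fell. Of 31 ribosomal protein genes 1 rose there. The share over all genes in bone is not given here, so the bone counts are a description. Gadd45a, a stress sensor, was at 9.92 against 8.23 CPM in skin and at 21.7 against 52.5 CPM in bone (difference of log2 effects 1.53, edgeR adjusted p = 0.000455). Apaf1 was at 44.3 against 17.8 CPM in skin and at 70 against 99.5 CPM in bone (difference 1.81, edgeR adjusted p = 5.3e-06). Cdkn1a went from 16.2 to 127 CPM in bone and from 175 to 326 CPM in skin, a smaller effect in skin by 2.09 on the log2 scale (edgeR adjusted p = 0.000295). Zmat3 also changed less in skin, from 98.9 to 239 CPM against 15.9 to 74.8 CPM in bone (difference of log2 effects -0.97, edgeR adjusted p = 0.00124). Trp53inp1 changed more in skin, where it went from 72.4 to 298 CPM against 184 to 219 CPM in bone (difference 1.79, edgeR adjusted p = 6.94e-05), and so did Exoc4 and Polk (0.68 and 0.84, edgeR adjusted p = 0.00319 and 0.00423). Ccng1 did not pass (0.20, edgeR adjusted p = 0.651). Idi1 was at 136 against 341 CPM in skin and at 23 against 25.5 CPM in bone (difference -1.19, edgeR adjusted p = 0.000192). Mki67 and Hist1h1d fell in both tissues, and their effects did not differ past the test (edgeR adjusted p = 0.898 and 0.397).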

How the data were processed

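RNA of mouse skin and bone was sequenced after polyA selection, per the labels' protocols. The deposited files give expected counts per gene. The deposited TPM and FPKM columns, normalised by gene length and library per the file headers, were not used here. RSEM, STAR, cutadapt, FastQC and the build GRCm38 are listed in the submitters' processing notes with no versions or roles, and strandedness is not given in the sources used here, so reads of overlapping or antisense genes cannot be told apart. Of 55471 gene identifiers 55230 (99.57%) were matched to names in GENCODE M21, whose coordinates are printed.

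Expected counts were rounded to whole numbers and tested with edgeR 4.0.16 (R 4.3.3; TMM scaling, filterByExpr, quasi-likelihood F test, Benjamini-Hochberg adjustment) on 8 skin libraries, without covariates. F-PRT was compared with S-PRT in a fit on 12 skin libraries, and tissue effects by an interaction in 16 libraries. CPM are TMM-scaled. Log2 changes of edgeR are those of the fit at its default prior count. A prior count of 2 was used for the log2 CPM behind the muscle covariate and the correlations between replicates. Alternatives used DESeq2 1.42.0 and limma 3.58.1 voom with quality weights, other filters and scalings, a replicate block, a muscle covariate and each library left out. Tested on simulated data of 18324 genes for skin F-PRT against Untreated, the script recovered 70 of 100 genes changed 2-fold and 96 of 100 changed 4-fold, with 5 false calls. The simulation gave both groups the same spread per gene and changed only genes with a mean above 2 CPM. It held no library that stood apart like Untreated 1, so these figures need not hold for the real libraries. No pair of replicates agreed within sampling noise.

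The comparison, the gene lists and the rules were chosen with earlier results of these data known. Named genes were the 10 largest rises and falls, the 8 largest CPM gains and losses and the 8 of smallest p (at least 2 CPM, groups not overlapping, no Gm or Rik models, pseudogenes or antigen receptor segments), up to 4 called members per list, a panel of 8 genes, and the top genes of the last 2 comparisons. Other named genes, and the gene families, were chosen after their values were seen, and not every gene of the rule is printed. Some results are not reported here.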

Additional observations from a re-analysis of the deposited data

Results flagged for a closer look

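Within each group of 4 libraries, 1 library lay far from the others for some values, by Dixon's test. This held for 32 of 396 groups checked (8.08%), and chance gives about 1 in 20. Untreated 1 was the high library in most of the untreated cases. It had 279 CPM of Cdkn1a against 135 to 149 in the others, 4327 of Krt1 against 1401 to 1843, 234 of Krt16 against 123 to 135, and 343 of Krt6a against 165 to 195. It also had 332 CPM of Srebf2 against 203 to 215, 227 of Dhcr7 against 138 to 151, 55.2 of Ebp against 34.6 to 37.9, and 10.8 of Pmvk against 7.13 to 7.47. Its values of Bbc3 (6.81 CPM), Dcxr (9.73 CPM), Robo4 (5.73 CPM) and Slit1 (2.33 CPM) were high in the same way. Its share of counts in models like ribosomal RNA was 10.8%, and it had 15625 genes of at least 1 CPM, against 16471 to 16591 in the other untreated libraries.

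Other untreated libraries stood out singly. Untreated 2 was high for Idi1 (395 CPM) and Cldn8 (12.5 CPM). Untreated 3 was low for Ifit1 (2.06 CPM), Ifit2 (2.3 CPM) and Rgs5 (33.8 CPM), the library that also had the lowest endothelial, fibroblast and macrophage marker sums. Untreated 4 had the lowest protein-coding share, 78.6%.

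Among F-PRT libraries, replicate 4 was high for Cyp1a1 (15.4 CPM), Ercc5 (68.8 CPM), Sesn2 (68.3 CPM) and Trp73 (17.2 CPM) and low for Foxn1 (9.06 CPM). F-PRT 3 was high for Cd55 (153 CPM), Dglucy (22.8 CPM) and Ms4a10 (5.49 CPM) and low for Hsd3b6 (12.5 CPM) and Mt2 (66.1 CPM). F-PRT 1 was high for Akr1c18 (21.7 CPM), and F-PRT 2 was low for Ptprb (56.8 CPM).

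The effect of F-PRT in skin minus that in bone, by the interaction in edgeR, was 4.22 on the log2 scale for Gria3, 3.82 for Ifnlr1, 2.91 for Syne1, 2.71 for Mpig6b and 2.35 for Rab27b.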

How the results depend on the processing

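The count of genes changed in F-PRT skin depended on the fit. It was 1212 with 8 libraries, 455 in the fit on all 12 skin libraries (1477 in that fit without S-PRT 4, which stood apart, an alternative chosen after seeing the data), 2234 with DESeq2 and 2523 with voom quality weights, and ranged from 554 to 2741 when a library was left out. With the replicate number as a block it was 522. The labels do not say that a number marks a shared animal or batch, and same-numbered F-PRT and untreated libraries correlated at only -0.13 to 0.205, so the numbers were not taken to pair them. The block ended the call of 32 of the 193 named genes and the fit on 12 libraries that of 63, and neither reversed one. Scaling by RLE, other filters, a muscle covariate and leaving out models like ribosomal RNA (an alternative chosen after seeing the data) kept the count within 1.5 times.

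F-PRT against S-PRT gave 0 genes, or 1 without F-PRT 3. The count for skin against bone stayed within 1.5 times in each alternative run. Changes of 6 genes that did not pass took both signs. With a library left out, Krt1 ran from -0.39 to 0.29 (highest without Untreated 1; 0.19 with voom), Ccnd3 from -0.01 to 0.15, Ddb2 from -0.05 to 0.14, Ppm1d from -0.01 to 0.13 and Trp53 from -0.3 to 0.0, and Slc5a3 was -0.0 with voom. The cause was not tested. Depth limits genes of a few CPM most, where an untreated level can rest on a handful of counts.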
